A study of Mus musculus with 20 samples.

Results

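Total RNA of mouse oocytes was compared between late prometaphase I, 6 h after release from arrest, and prophase I, at 0 h. The groups compared held 4 of the 20 libraries of the study, namely the 2 total RNA libraries of each of these times. All 7917 genes listed for total RNA were tested. The spread behind the p-values was estimated from all 10 total RNA libraries, including those of other times. All oocytes came from C57BL/6 females, 3 weeks old, that were Zp3-Cre+ and carried RiboTag, in which Cre lets the cell make a tagged ribosomal protein. Zp3 is active in growing oocytes, so the tag is an oocyte tag, and both times carry it. Females were primed with 5 IU of PMSG, oocytes were taken from antral follicles after 44 h, stripped of cumulus cells by pipetting, and held in prophase I with 1 µM cilostamide, a phosphodiesterase inhibitor. The 0 h group is this arrested stage, and the 6 h group was cultured without the inhibitor for 6 h. Each sample pooled 200 oocytes. Total RNA was taken beside the ribosome-bound mRNA that the tag pulls down, and further groups were collected at 2 h, 4 h and 8 h. GEO's description field names these samples ribosome-bound too, but their titles call them input, and the titles were followed.

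A fully grown oocyte has stopped transcribing and carries through meiosis on the mRNA it stored while it grew. On resumption, stored mRNAs are translated or silenced in turn, largely through the length of their poly(A) tails, and deadenylation begins to mark part of the store for decay. Tails are lengthened on mRNAs that carry a cytoplasmic polyadenylation element in the 3′ UTR, which the protein CPEB1 binds. The comparison asks which transcripts had changed their share of total RNA by late prometaphase I.

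Values are scaled CPM, that is, the share of a library's reads that fall in a gene, on the CPM scale, times a factor of that library. The depth inferred for the 4 libraries was 37449832 to 42825538 reads in listed genes, so a value of 10 stood for 375 to 432 reads. Across genes, which are not independent replicates, Pearson's r between the 2 libraries of a time was 0.97 at 0 h and 0.963 at 6 h. No label says that a replicate was its own culture or animal, and p-values therefore measure only the spread between these samples. On the leading principal component of the 10 total RNA libraries (28.4% of variance), the 8 h libraries stood apart at 37.4 and 19.8, the 6 h libraries lay at 2.79 and 0.159 and the 0 h libraries at -17.2 and -9.3. Of 18 oocyte markers 16 were listed (all but Figla and Sohlh1), with a summed value of 21590 to 22390 at 0 h and 21870 to 22100 at 6 h. Mitochondrially encoded transcripts made up 2.66% and 2.71% of listed values at 0 h and 2.73% and 2.54% at 6 h. Granulosa and cumulus markers were listed for 7 of 20, with Amh, Foxl2, Star, Has2 and Ptx3 not listed. Their summed value was 330.1 to 397.9 at 0 h and 427.2 to 489.7 at 6 h, so both 6 h libraries were above both 0 h libraries, and the part of this in the results below was not tested. Of 17 markers of blood, stroma and endothelium only Pecam1 and Tek were listed, with sums of 140.3 and 158.2 at 0 h and 134.5 and 155.2 at 6 h.

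Few genes were detected as changed in total RNA by 6 h. By limma's test at an adjusted p of 0.05, 16 of 7917 genes passed (0.202%), 14 higher at 6 h (0.177%) and 2 lower (0.0253%). The 14 included the oocyte genes Oosp1, Omt2a, Omt2b, Tcl1, Bcl2l10 and Obox5, and the 14 rises ran from 0.65 to 2.86 on the log2 scale. Cpsf4l and Eef1d were the 2 that fell. The count rests on both 0 h libraries and on how the spread is estimated. In a fit of only the 4 libraries compared, 12 genes passed, 10 of them among the 16. No gene passed without 0 h replicate 1 (289 genes at an unadjusted p under 0.05), without 0 h replicate 2 (684 genes) or when limma's moderation had no mean-variance trend (645 genes, against 613 or 7.74% in the fit reported). Without 6 h replicate 2 a single gene passed, which is not among the 16, and without both 8 h libraries 38 did, all 16 among them. The log2 changes of the 16 kept their sign in each of these fits. Because their 0 h and 6 h libraries did not overlap, these fits could not have changed a sign.

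Most transcripts stayed close to their 0 h share. The median change over all genes was -0.01 on the log2 scale, 85.0% of genes lay within 0.5 of no change, and the 5th and 95th percentiles were -0.63 and 0.57. A change of at least 1 on the log2 scale was seen upward in 51 genes and downward in 81, of which 6 and 2 passed the test. Genes with changes of that size were mostly low, as the median of their mean values was 13.35 against 44.5 for all genes. Values are shares of each library, so a loss or gain common to all transcripts does not show in them, and in pooled oocytes fewer cells holding a transcript and less of it per cell cannot be told apart. The sources used here do not give how RNA was selected for the libraries or whether strand was kept, and the recovery of a transcript and its amount cannot be told apart either.

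**Figure D1:**
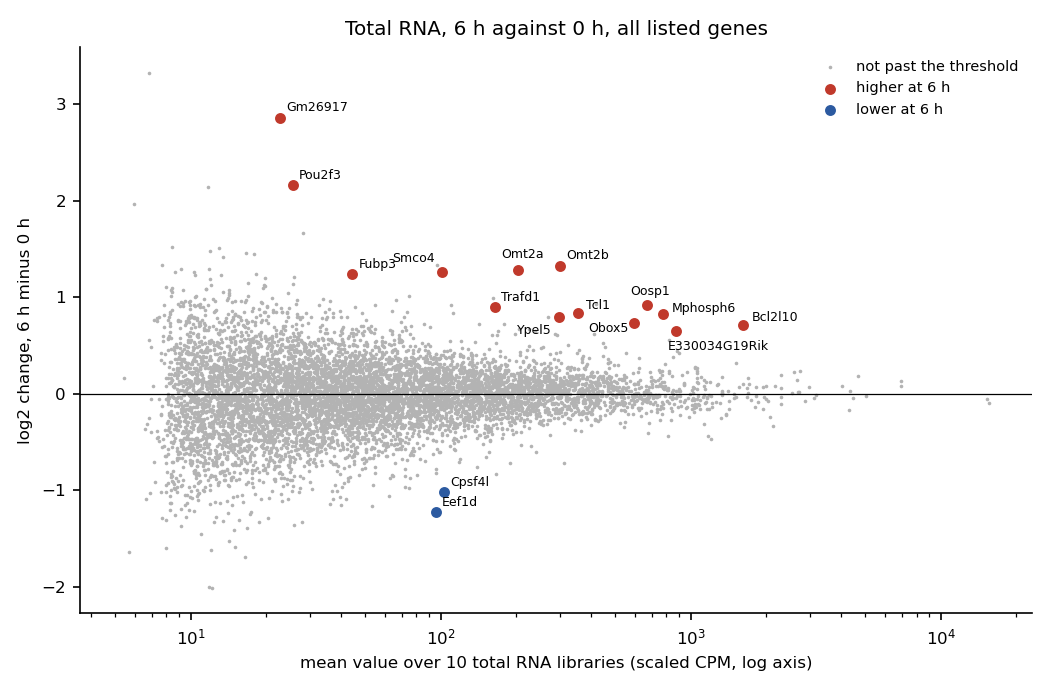
Log2 change in total RNA from 0 h to 6 h (vertical axis) against the mean value over the 10 total RNA libraries in scaled CPM (log axis), with 1 point a gene. The 14 named red points rose and the 2 named blue points fell, and the grey cloud of other genes widens toward low values.

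Oosp1, an oocyte-secreted protein (ENSMUSG00000041857.10, protein coding, mm10 chromosome 19, 11667460 to 11691150, minus strand), stood at 466 and 451 at 0 h and at 807 and 926 at 6 h. The 6 h libraries were far above the 0 h libraries, with no overlap. The change was 0.91 ± 0.13 (log2 ± limma standard error, 2 libraries a group, adjusted p 0.00943), from a mean of 459 ± 10.5 (SD, n = 2) to 866 ± 83.6. Values between these times were 531 and 629.8 at 2 h and 722 and 624 at 4 h.

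Omt2a and Omt2b, a pair of oocyte maturation transcripts that lie side by side on chromosome 9, behaved alike. Omt2a (ENSMUSG00000066463.12, 78311972 to 78314796, minus strand) stood at 134 and 110.1 at 0 h and at 254 and 344 at 6 h, and Omt2b (ENSMUSG00000038750.12, 78327589 to 78329620, plus strand) at 185 and 152 and then at 356 and 501. In both, each 6 h library exceeded each 0 h library and replicate 2 was the higher at 6 h. The changes were 1.28 ± 0.19 and 1.33 ± 0.21 (adjusted p 0.00943 for each). Their annotated transcripts matched at 91.5% of 707 aligned bases, so reads may have been divided between them, and each value alone is uncertain.

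Tcl1, a coactivator of the kinase AKT, and Bcl2l10, a BCL2-family regulator of cell survival abundant in oocytes, had their highest values at 8 h. Their step from 6 h to 8 h was not tested. Tcl1 (ENSMUSG00000041359.14, chromosome 12, 105216750 to 105222793, minus strand) went from 256 and 227 at 0 h to 461 and 403 at 6 h and to 477 and 474 at 8 h. Bcl2l10 (ENSMUSG00000032191.5, chromosome 9, 75347758 to 75351632, plus strand) went from 1199 and 1101 to 1842 and 1914 and then to 2300.2 and 2137. Groups of 0 h and 6 h did not overlap in either gene, and both 8 h libraries lay above both 6 h libraries. The changes at 6 h were 0.83 ± 0.13 for Tcl1 (adjusted p 0.00943) and 0.71 ± 0.12 for Bcl2l10 (adjusted p 0.0101). Tcl1 belongs to a family of similar genes, among which reads can be shared.

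Obox5, an oocyte homeobox gene of a family of similar copies on chromosome 7 (ENSMUSG00000074366.9, 15750131 to 15759800), had values of 450.1 and 412 at 0 h and of 682 and 747 at 6 h, a change of 0.73 ± 0.13 (adjusted p 0.0205). Pou2f3, a POU-domain transcription factor (ENSMUSG00000032015.15, chromosome 9, 43123939 to 43210369), was low, at 8.19 and 11.5 at 0 h and at 36.3 and 60.8 at 6 h. Every 6 h library was above every 0 h library in both genes, and in Pou2f3 the 6 h replicates lay far from each other. The change of Pou2f3 was 2.16 ± 0.34 (adjusted p 0.00943). Its 8 h values, 27.7 in each library, were below both 6 h values.

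The other risen genes have varied known roles. Trafd1, a zinc finger protein that restrains innate immune signalling (chromosome 5), went from 114 and 117 to 227 and 206, a change of 0.89 ± 0.15 (adjusted p 0.0126). Mphosph6, a partner of the nuclear exosome in ribosomal RNA processing (chromosome 8), went from 595 and 545 to 871 and 1175 (0.83 ± 0.16, adjusted p 0.0241). Fubp3, a KH-domain protein that binds single-stranded nucleic acid (chromosome 2), went from 22.4 and 22.5 to 47.4 and 62.4 (1.24 ± 0.25, adjusted p 0.0391). In these genes too the groups did not overlap, with the 0 h libraries of Fubp3 nearly equal and the 6 h libraries of Mphosph6 well apart. Fubp3 already stood at 65 and 54.4 at 4 h, and the first of these lies above each of its later values. Ypel5, a protein found with the CTLH ubiquitin ligase (chromosome 17), went from 232 and 185 to 332 and 387 (0.79 ± 0.16) and passed narrowly, with an adjusted p of 0.0493. Among the 16 alternatives, Fubp3 passed in 8 (adjusted p 0.0259 to 0.385 over all) and Ypel5 in 6 (0.0187 to 0.385), and both missed the threshold with a replicate block and without any single one of the 4 libraries. The other coding genes were Smco4 (chromosome 9, 68.8 and 45 to 115 and 157, adjusted p 0.0205) and E330034G19Rik (chromosome 14, 692 and 678 to 1016 and 1133, adjusted p 0.0205). The changes in Smco4 and E330034G19Rik were 1.26 ± 0.23 and 0.65 ± 0.12.

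Gm26917 was the single gene of the 16 that is not annotated as protein coding (ENSMUSG00000097971.3, annotated as a lincRNA on chromosome 17, 39843013 to 39846341). The GC content of its annotated transcript is 69.12%, against a median of 48.96% for all genes, and the origin of its reads was not tested. Its values were 2.61 and 4.59 at 0 h, 5.18 and 9.22 at 2 h, 27.2 and 36.2 at 4 h, and 40.1 and 24.7 at 6 h. The later libraries were well above the 0 h libraries, and the change at 6 h was 2.86 ± 0.53 (adjusted p 0.0205). At 8 h the replicates parted, at 13.4 and 64.1.

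Of the 2 genes that fell, 1 is related to mRNA 3′-end processing and 1 serves translation elongation. Cpsf4l, a paralog of a subunit of the cleavage and polyadenylation factor (ENSMUSG00000018727.19, chromosome 11, 113698172 to 113710017, minus strand), stood at 163 and 128 at 0 h, 142 and 139 at 2 h, 84.3 and 109 at 4 h, 72.9 and 68.2 at 6 h and 59.8 and 62.4 at 8 h. Eef1d, a subunit of the exchange factor that recharges elongation factor eEF1A (ENSMUSG00000055762.15, chromosome 15, 75894205 to 75909556, minus strand), stood at 161 and 132, 130.1 and 128, 74.9 and 116, 58.8 and 64.5, and 55.3 and 36.9 at the same times. In both, the 6 h libraries were below both 0 h libraries and the 8 h libraries lower still. Cpsf4l fell by 1.02 ± 0.19 on the log2 scale and Eef1d by 1.23 ± 0.23 (adjusted p 0.0205 for each). Neither gene passed without 6 h replicate 1, where 11 genes passed, all higher at 6 h and 8 of them among the 16.

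**Figure D2:**
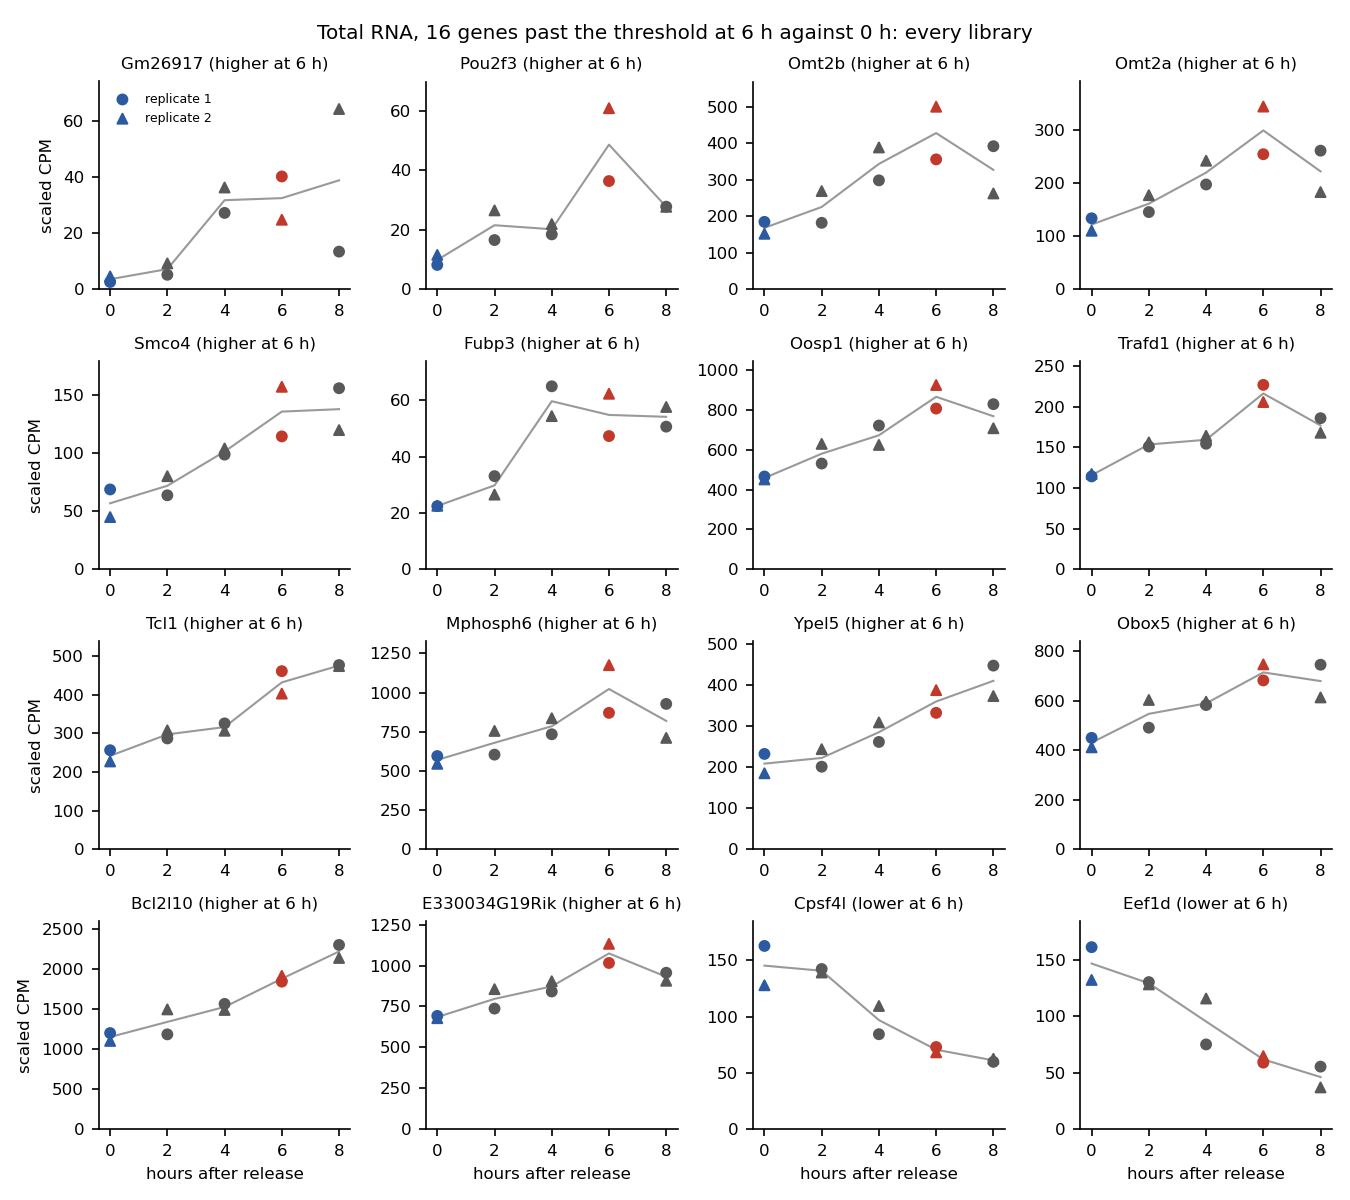
Values of the 16 genes in scaled CPM (vertical axes, from 0) by hours after release (horizontal axes) in every total RNA library, with circles for replicate 1, triangles for replicate 2, blue for 0 h, red for 6 h, grey for other times and a line through the means. In each of the 14 genes marked higher both red points lie above both blue points, and in Cpsf4l and Eef1d they lie below.

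At 2 h and at 4 h against 0 h no gene of the table passed limma's test, with 226 and 347 genes at an unadjusted p under 0.05. At 8 h both libraries had gone further than both 6 h libraries for Tcl1, Bcl2l10, Cpsf4l and Eef1d. Both 8 h libraries had come back short of the 6 h libraries for Pou2f3, Trafd1 and E330034G19Rik, and the 6 h and 8 h libraries of the other 9 genes overlapped. The change from 6 h to 8 h was not tested. At 8 h against 0 h, a comparison that shares the 0 h libraries, 314 genes passed (3.97%), 75 higher (0.947%) and 239 lower (3.02%). Of the 16 genes, Mphosph6 alone missed the threshold there (0.51, adjusted p 0.0773).

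The same genes were read in libraries that lie outside the 0 h and 6 h means. These libraries did enter the spread by which the 16 genes were called. From 2 h to 8 h, 284 genes of total RNA passed (3.59%), 52 higher (0.657%) and 232 lower (2.93%). All 16 genes had the same sign in it, and 7 passed in the same direction, which is 43.8% of the 16 and 2.47% of the 284. The share of all genes with the same sign in both comparisons was not counted, so the sign of the 16 has no background beside it. The 7 were Tcl1 (0.68 ± 0.13, adjusted p 0.00564), Bcl2l10 (0.74 ± 0.12, adjusted p 0.00104), Smco4 (0.93 ± 0.23), Gm26917 (1.95 ± 0.53), Ypel5 (0.88 ± 0.16), Cpsf4l (-1.19 ± 0.19) and Eef1d (-1.49 ± 0.23). Smaller changes stood in Trafd1 (0.20 ± 0.15), E330034G19Rik (0.23 ± 0.12) and Mphosph6 (0.27 ± 0.16). Both comparisons come from a single fit and share its estimate of the spread. Without 2 h replicate 2 the count of 284 was 44, with 4 of the 16 genes among them, and it was 144 with 3 of the 16 without 2 h replicate 1.

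Most of these transcripts also changed on ribosomes. In the ribosome-bound table, fitted on its own, 2108 of 7543 genes passed at 6 h against 0 h (27.9%), 1102 higher (14.6%) and 1006 lower (13.3%). Of the 14 transcripts that rose in total RNA 13 also rose there, and both that fell also fell. Oosp1 had ribosome-bound values of 187 and 236 at 0 h and of 1066 and 1032 at 6 h, a change of 2.31 ± 0.15 beside 0.91 in total RNA. Obox5 went from 165 and 279 to 1149.6 and 1295 on ribosomes, a change of 2.50 ± 0.20 beside 0.73. Tcl1 went from 124 and 99.8 to 463 and 439, a change of 2.01 ± 0.15 beside 0.83. In these 3 genes the ribosome-bound change was the larger. Gm26917 had the smaller change on ribosomes, 2.07 ± 0.51 beside 2.86 ± 0.53. The difference between the tables, which were fitted separately, was not tested. Ypel5 (0.97 beside 0.79), Cpsf4l (-1.21 beside -1.02) and Eef1d (-1.18 beside -1.23) had changes close to each other in both kinds of RNA.

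Pou2f3 was the exception among the 14. Its ribosome-bound values were 27.3 and 14.5 at 0 h and 9.52 and 12.2 at 6 h, so they were lower at 6 h while total RNA was higher. That ribosome-bound change, -0.83 ± 0.46, did not pass (adjusted p 0.194).

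**Figure D3:**
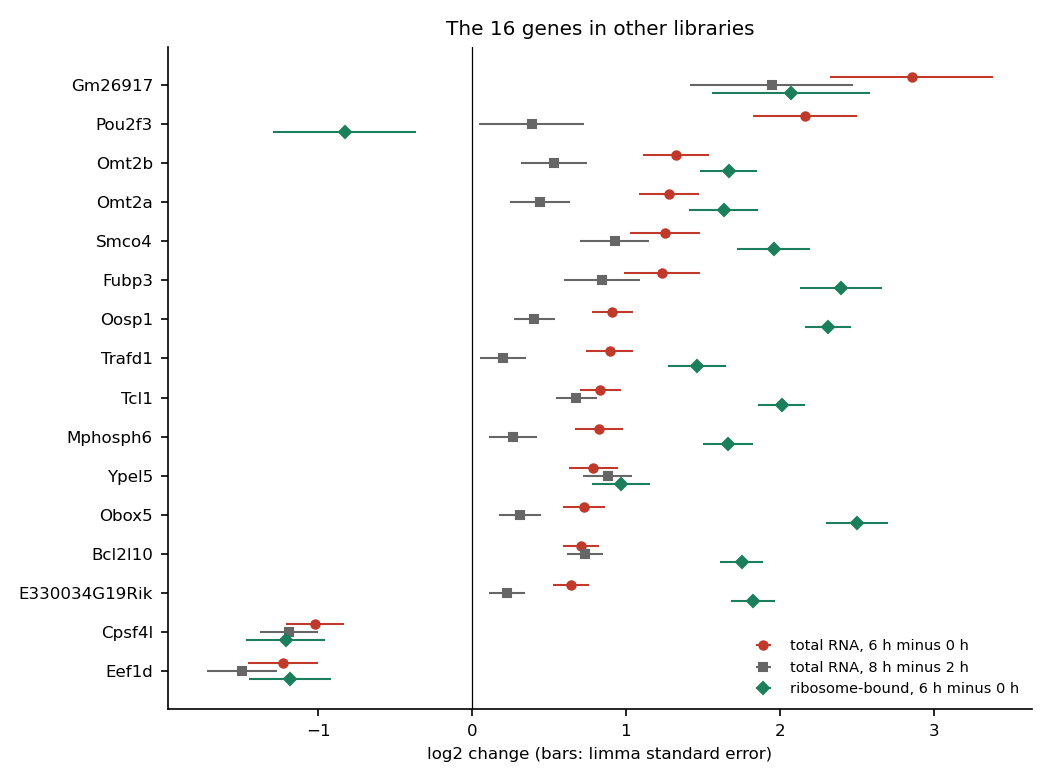
Log2 change of the 16 genes (horizontal axis, bars are limma standard errors) in total RNA from 0 h to 6 h (red circles), in total RNA from 2 h to 8 h (grey squares) and in ribosome-bound mRNA from 0 h to 6 h (green diamonds). Of the 3 symbols, the green diamond lies farthest from 0 for most risen genes, and for Pou2f3 it lies on the other side of 0 from the red circle.

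Transcript length and the cytoplasmic polyadenylation motif near the 3′ end were described for the risen genes, without a test. Their median annotated transcript length was 1471 bases against 3441 for all genes with a length, with Oosp1 at 972, Omt2b at 735 and, as the longest, Fubp3 at 3648, and the median 3′ UTR was 541 bases against 1272. The motifs TTTTAT and TTTTAAT were searched on the sense strand only, in the last 100 bases of the 3′ UTR of the GENCODE vM21 transcript. They may overlap or adjoin the polyadenylation signal AATAAA, and the annotated end may not be the end used in oocytes. Of the 13 risen genes with a 3′ UTR, 8 held a motif (61.5%, exact Clopper-Pearson 95% interval 31.6% to 86.1%, counting error only). Among all genes tested it was 1564 of 7342 (21.3%), and in Cpsf4l and Eef1d no match was found. In windows of 200 bases the counts were 9 of 13 and 2232 of 6913 (32.3%). Because Omt2a and Omt2b are near copies, they are not separate instances, and a match is a description of the letters and not a site shown to act.

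A stretch from each of the 8 genes with a motif is shown, because the motif is a feature that 8 of the 13 share at the 3′ end. Omt2a, Omt2b and E330034G19Rik each hold 2 matches, of which 1 is shown. Each is 30 bases of mm10 read 5′ to 3′ on the gene's strand with the motif in capitals, from chr9:78312016-78312045 (minus), chr12:105216797-105216826 (minus), chr9:78329555-78329584 (plus), chr9:75351579-75351608 (plus), chr5:121371772-121371801 (minus), chr14:24309917-24309946 (plus), chr2:31617437-31617466 (plus) and chr17:72851145-72851174 (plus) in turn.
Omt2a: gggttttaacggTTTTATaataaataaaag
Tcl1: gaatgtgtgggaTTTTATgtggttctattt
Omt2b: gggttttaacggTTTTATaataaataaaag
Bcl2l10: cccttaatacatTTTTAATaacttcaaatt
Trafd1: agcccctcccctTTTTATtttactgttcta
E330034G19Rik: attaagagaatgTTTTATgaataataaact
Fubp3: taaagatgttctTTTTATttgactgacaat
Ypel5: cccaaatagtacTTTTAATtgaaagatcta
The stretches of Omt2a and Omt2b are identical. In the other 6 the letters around the motif differ, and Bcl2l10 and Ypel5 hold the longer motif. The motif shown began 30 bases from the annotated end in Omt2a, 38 in E330034G19Rik, 39 in Ypel5, 42 in Bcl2l10, 54 in Omt2b, 65 in Tcl1 and in Trafd1, and 71 in Fubp3.

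The 14 risen genes also lay unevenly over the genome. Of them 5 are on chromosome 9 (35.7%), namely Omt2a, Omt2b, Bcl2l10, Pou2f3 and Smco4, against 467 of 7910 genes in all (5.90%). Omt2a and Omt2b are neighbours with shared sequence. Bcl2l10, which starts at 75347758, lies nearer to Omt2a (78311972) than Pou2f3 (43123939) and Smco4 (15493432) do. The uneven placing was noticed after the genes were known and was not tested.

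Regulators of meiosis whose mRNAs are loaded onto ribosomes over this time had little or no detectable change in total RNA. None of 18 genes in a panel of meiotic, RNA-binding and egg coat genes passed. Ccnb1, the cyclin that activates CDK1 at entry into M phase, had values of 202 and 199.7 at 0 h and of 225 and 253 at 6 h. Both 6 h values were somewhat higher than the 0 h values, and the change was 0.25 ± 0.14 (95% interval -0.05 to 0.55, adjusted p 0.695). On ribosomes Ccnb1 rose by 2.07 ± 0.15. Mos, the kinase that switches on MAPK in oocytes, had 156 and 175 and then 217 and 177 in total RNA (0.25 ± 0.16), beside 1.67 on ribosomes.

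Plat, tissue plasminogen activator, had 1859.7 and 2024 at 0 h and 1851 and 1950.3 at 6 h, and the groups overlapped (-0.03 ± 0.11, beside 1.73 on ribosomes). Dazl, an RNA-binding translational activator, had 273 and 281 and then 338 and 256 (0.08 ± 0.15, beside 1.58). Btg4, which brings the deadenylase to maternal mRNA, had 900.0 and 955 and then 1027 and 1225 (0.27 ± 0.12, adjusted p 0.616, beside 1.05). In Btg4 the 6 h libraries were the higher without overlap, while in Dazl they lay on both sides of the 0 h values. Cdc20 stood at 0.50 ± 0.23 (adjusted p 0.635) and Tpx2 at 0.10 ± 0.13.

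Magoh and Rps4x had the largest log2 changes of the panel in size. Magoh, a core protein of the exon junction complex, had 41.2 and 45.9 at 0 h and 85 and 87.9 at 6 h, well apart, with a change of 0.97 ± 0.22 that missed the threshold (adjusted p 0.0845). Rps4x, a protein of the small ribosomal subunit, had 56.6 and 54.7 and then 27.4 and 26.8, a change of -1.01 ± 0.27 (adjusted p 0.211). At 8 h Rps4x stood at 8.35 and 7.45. Among transcripts that leave ribosomes, the condensin gene Smc4 had 1541 and 1478 and then 1313 and 1277 (-0.22 ± 0.16, beside -2.19 on ribosomes), and the egg coat gene Zp2 stood at -0.16 ± 0.12 beside -1.43.

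Zp3 stood at -0.33 ± 0.13, Zar1 at -0.10 ± 0.13, Cpeb1 at -0.15 ± 0.11, Ybx2 at 0.19 ± 0.16, Cdk1 at -0.33 ± 0.27, and the growth factor genes Gdf9 and Bmp15 at 0.19 ± 0.12 and -0.04 ± 0.12. None of them passed, and a missed threshold does not show that the levels were equal.

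Gene lists described the rest of the table, each by its counts and its median beside those of all genes. Over all genes the median was -0.01, and 0.177% passed as higher and 0.0253% as lower. Both 6 h libraries lay above both 0 h libraries in 1485 genes (18.8%) and below in 1565 (19.8%). Zona, surface and secreted factors had 3 of 18 genes up, Oosp1 and the near copies Omt2a and Omt2b, with a median of -0.03. Maternal-effect genes had 2 of 40 up, Tcl1 and Bcl2l10, with a median of -0.02. Of the 16 oocyte markers Oosp1 alone passed, 12 had a change below 0 and the median was -0.04. Eef1d was the only one of 47 translation factors to pass, and the median of that list was -0.04.

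Genes for ribosomes, respiration and protein breakdown had medians below 0 with no member past the threshold. Of 55 cytosolic ribosomal protein genes, 3 were higher without overlap and 22 lower, and the median was -0.13. The summed value of the list was 1791 and 1708 at 0 h and 1501 and 1517 at 6 h, and then 1030 and 935.8 at 8 h. By 8 h against 0 h 20 of the 55 had fallen (3.02% of all genes fell), with a median of -0.87. Reads of ribosomal protein genes can be shared with their pseudogenes, so single values are uncertain.

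Proteasome genes were lower without overlap in 17 of 35 cases and higher in 8 (median -0.13), and 11 had fallen at 8 h. Psmc1, an ATPase of the proteasome base, had 103.8 and 96.2 and then 46 and 55, a change of -0.98 ± 0.25 (adjusted p 0.175). Oxidative phosphorylation genes were lower in 18 of 51 cases and higher in 13 (median -0.12), and 10 had fallen at 8 h. Sdhd, a membrane anchor of succinate dehydrogenase, had 121 and 97.3 and then 62.3 and 56 (-0.87 ± 0.21, adjusted p 0.130). In both genes the 6 h libraries were below both 0 h libraries.

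Medians above 0 were seen, among others, for the lists of the endoplasmic reticulum and secretion (0.12, 11 of 37 higher without overlap and 2 lower), of chromatin and histone supply (0.12, 10 of 29 and 4) and of deadenylation and decay (0.06, 10 of 30 and 3). None of their members passed. Zcchc11, which encodes a terminal uridylyltransferase and is in the last of these lists, had the largest log2 change of the table, 3.32 ± 0.93, and did not pass (adjusted p 0.244). Its values were 0.33 and 1.30 at 0 h, 13.9 and 19.5 at 6 h, and 0.0614 and 13.03 at 8 h, so replicates were far apart. A list of genes that earlier literature describes as translationally activated in oocytes had 11 of 23 higher without overlap and 2 lower, with a median of 0.14. In total RNA 1 of the 23, Obox5, had risen, whereas on ribosomes 19 of the 23 had risen (14.6% of all genes rose), with a median of 1.40. This list was written with earlier results of these data known, so its counts are no outside check.

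Lists of the cell cycle had no member past the threshold and medians on either side of 0. These were M-phase entry (27 genes, 0.01), the anaphase-promoting complex (21 genes, -0.02), kinetochore and spindle checkpoint (31 genes, 0.07), spindle and cytokinesis (32 genes, -0.01), cohesin and condensin (22 genes, -0.11) and replication licensing (36 genes, 0.03). RNA-binding and poly(A) regulators (43 genes, 0.04) were alike, with Zar1l closest to the threshold (-0.76 ± 0.19, adjusted p 0.146). Of the 7 granulosa and cumulus markers listed, 6 had a change above 0 and 1, Fshr, below (-0.33), and none passed. Inha had the largest change of them, from 3.32 and 2.32 to 15.3 and 12.4 (adjusted p 0.618).

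**Figure D4:**
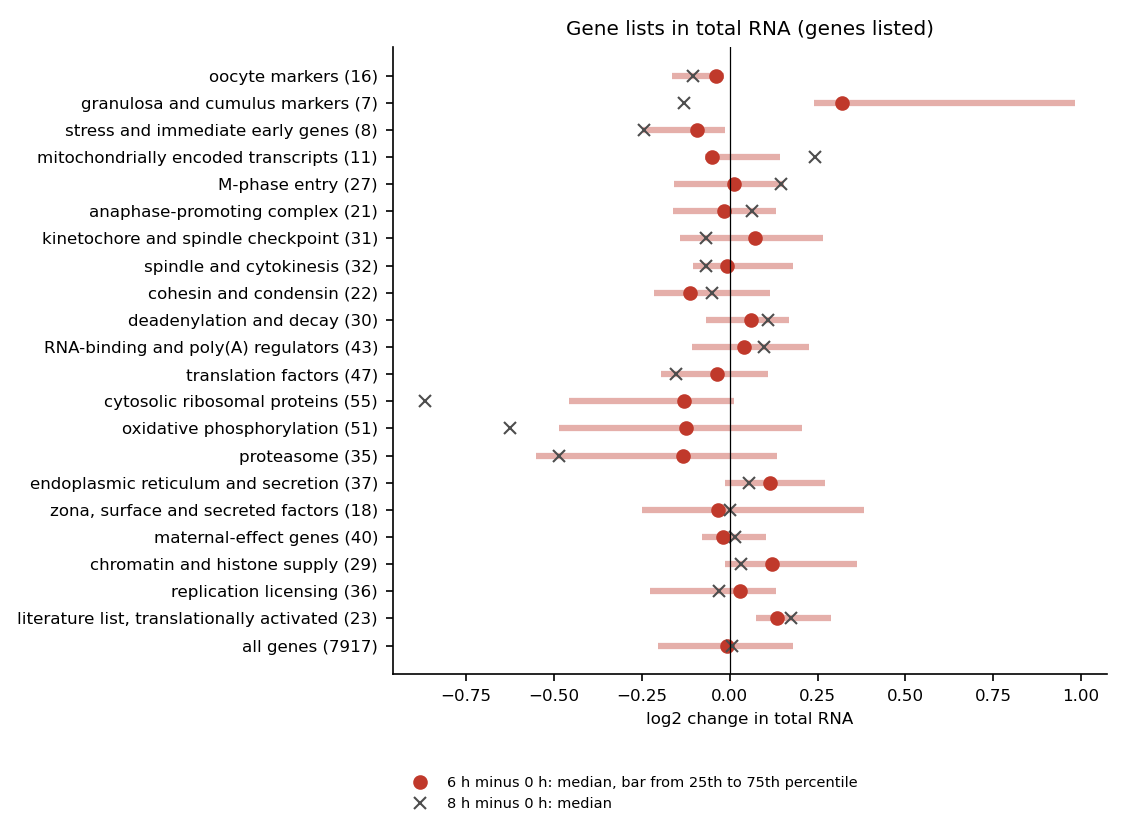
Median log2 change of each gene list in total RNA (horizontal axis) from 0 h to 6 h (red circles, with bars from the 25th to the 75th percentile of the members) and from 0 h to 8 h (crosses), with the number of listed genes in brackets. Of the lists drawn, which are those with at least 5 genes listed, the granulosa and cumulus markers (7 genes) have the red circle farthest from 0, at 0.32, and the crosses of ribosomal protein, oxidative phosphorylation and proteasome genes lie farther below 0 than their circles.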

How the data were processed

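Total RNA and ribosome-bound mRNA were sequenced in 20 libraries, 2 for each of 10 groups named in the sample titles, whose letters A and B are called replicates 1 and 2 here. The submitters' processing notes name mm10 and the tools HISAT2, HTSeq, Trimmomatic 0.36, SAMtools, FastQC, limma and edgeR, in no stated order. The authors deposited 1 table for each kind of RNA, holding a normalized signal, CPM scaled by a factor per library. Plain CPM had been assumed, and the same test was kept. All values were whole multiples of a step within 0.01 of a read, from which depth was inferred (33154384 to 51714900 reads in listed genes over the 10 total RNA libraries). Replicates differed by more than counting error (chi-square per degree of freedom 67.3 at 0 h and 99.8 at 6 h).

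The log2 of each value plus a pseudocount of 1 was analysed, so fold changes of low genes are understated. The filter, a value of 1 in at least 2 libraries, kept all 7917 genes. A linear model over the 10 total RNA libraries was fitted with limma 3.58.1 in R 4.3.3. Variances were moderated by empirical Bayes along a mean-variance trend. After the main fit, the model was also run on data simulated from the means and spreads of these genes. Tests were two-sided, with Benjamini-Hochberg adjustment over all genes of the table. The ribosome-bound table was fitted in the same way. The naming rule took all genes past the threshold, as they numbered under 40, and a panel of 18 genes whatever their values. Sdhd, Psmc1, Zar1l, Zcchc11, Inha and the genes of adjusted p 0.05 to 0.1 fall outside it and were chosen after their values were seen. The genes, lists and panel were chosen with earlier results of these data known. GENCODE vM21, joined on gene IDs, gave coordinates and 3′ UTRs (5688 with the same version, 2222 with another and 7 not found). Alternatives varied the pseudocount, filter, scaling, moderation, sequence correction, replicate block and libraries. Letters were not used to pair samples.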

Additional observations from a re-analysis of the deposited data

How the results depend on the processing

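No gene of the 16 changed sign in the 16 alternatives, and their numbers past the threshold varied. Leaving out 1 of the 4 libraries could not change a sign, because the 0 h and 6 h libraries of these genes did not overlap. Changing the moderation or filter, adding the replicate block or leaving out other times left their log2 changes as they were. The kept sign is therefore no check in those alternatives. For genes called at 6 h against 0 h, moderation without a trend gave 0 (0 higher and 0 lower). Leaving out 1 of the 4 libraries gave 0 to 11 genes, 0 to 11 higher and 0 lower, with 0 for either 0 h library, 11 without 6 h replicate 1 and 1 without 6 h replicate 2. An arm then held 1 library, which was assumed to vary like the other groups. Leaving out both 8 h libraries, an alternative chosen after seeing the data, gave 38 (23 higher and 15 lower). With a mean value of 20 or more as the filter 5 genes were lower, and 1 was in a fit of only the 4 libraries. Other settings gave 12 to 23 genes. The replicate block gave 14 genes. The deviations of same-letter libraries correlated at -0.0295 for 0 h and 6 h and over 0.1 for 1 of 10 pairs of times. These correlations show little sign of pairing by letter, and they cannot show whether same-letter samples shared animals or a culture. For 2 of 5 times, libraries correlated better with their own letter. A planned count test in edgeR was not run. Although the values were whole multiples of a step, they are CPM times a factor that is not stated, and they were kept as normalized values. Of the panel, the log2 change of Dazl turned to -0.004317 and that of Zar1 to 0.01749 with the length and GC correction, both with and without the block. Leaving out 1 library, Dazl ranged from -0.1162 to 0.2843, Bmp15 from -0.2259 to 0.1516, Tpx2 from -0.01494 to 0.2209, Plat from -0.09099 to 0.03104 (0.00764 without 6 h replicate 1) and Zar1 from -0.2395 to 0.03845. For 8 h against 2 h, leaving out 1 library gave 44 to 338 genes, of which 3 to 6 were among the 16. In windows of 200 bases the motif share of all genes was 32.29%. The cause of these differences was not tested. A value of 10 stood for 326 to 533 reads, and differences between replicates exceeded counting error.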

Other observations

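Just outside the threshold, at an adjusted p between 0.05 and 0.1, lay 12 genes, 6 higher and 6 lower at 6 h. Beside Magoh the higher ones were Pfdn4, a prefoldin subunit (269 and 278 to 469 and 584, 0.93 ± 0.19, adjusted p 0.0509), Bod1, Tex19.1, Rchy1 and Gle1, with log2 changes of 0.80, 1.33, 0.92 and 0.72. The lower ones were Dnajc11, N4bp2, Elof1, Nelfe, Upp1 and Slc25a16. Upp1, uridine phosphorylase, went from 57 and 53.9 to 21.7 and 29.9 (-1.09 ± 0.25, adjusted p 0.0929), and Nelfe, a subunit of the negative elongation factor, from 44.2 and 36.5 to 18.6 and 12.2 (-1.36 ± 0.30, adjusted p 0.0811). N4bp2 had 371 and 428 at 0 h and 242 in each library at 6 h in total RNA (-0.72 ± 0.15, adjusted p 0.0623). On ribosomes N4bp2 had 252 and 249.7 and then 432 and 418, a rise of 0.76 ± 0.15 in limma (adjusted p 0.00106). Total RNA of N4bp2 was thus lower at 6 h in both libraries and its ribosome-bound value higher in both. These genes did not pass at 6 h against 0 h, and the difference between the tables was not tested.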
